A study of Mus musculus with 14 samples.

Results

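The genes described here are 10 genes of insulin and insulin-like growth factor (IGF) signalling in mouse granulosa cells (GCs): the ligand Igf1, the receptors Igf1r, Insr and Igf2r, the adaptors Irs1 and Irs2, the binding proteins Igfbp4 and Igfbp5, the binding protein protease Pappa, and Ide, which codes for insulin-degrading enzyme. They were chosen by name for their place in the pathway, from 55414 genes in the count table, of which 34753 had at least 1 count. The study asked how transcription in GCs of antral follicles differs in genetic obesity with impaired leptin signalling. RNA-seq was available for 14 libraries in 4 groups, each library made from about 50 pooled cells.

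Insulin and IGF1 bind related receptor tyrosine kinases, Insr and Igf1r, and both receptors signal through the adaptor proteins Irs1 and Irs2 to PI3K, AKT and the MAPK cascade. Binding proteins hold IGF1 outside the cell, proteases such as Pappa release it by cutting them, and Igf2r takes IGF2 up for degradation. In the rodent ovary, IGF1 is made by GCs of growing follicles and strengthens their response to follicle-stimulating hormone, whereas Igfbp4 and Igfbp5 are best known from follicles in atresia.

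The db/db group (4 libraries) came from females of the strain B6.BKS(D)-Leprdb/J, which lack the long isoform of the leptin receptor, and CT db (4 libraries) from the lean controls of that model. The ob/ob group (3 libraries) came from females of B6.Cg-Lepob/J, which make no leptin, and CT ob (3 libraries) from its lean controls. The mutant mice were studied at 12 weeks of age, both mutations act in the whole body, and the models are separate strains. Controls are wild type according to the labels and lean littermates according to the study, while the column names of the control libraries read as heterozygous, and this was not settled here. Libraries are called by the number in their column name, which tells neither the animal nor whether libraries of a group came from separate animals, so p-values measure the spread between these libraries.

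The libraries held 2204686 to 8367593 counts, and 3 counts, taken as the limit of detection, amounted to 0.369 to 1.30 CPM (a gene's counts in each 1e6 counts of the TMM-scaled library total). Lepr was at 0 to 17 counts and Lep at 0 to 3 counts in every library, so neither mutation could be checked from its gene. The 10 granulosa cell markers were above 0 in every library and summed to 5870 to 14232 CPM. Markers of other cells were lower: summed CPM was 4.41 to 317 for 8 theca and stroma markers, 4.79 to 40.4 for 6 endothelial, 1.73 to 23.5 for 6 macrophage and leukocyte, 210.0 to 1355 for 6 luteal and 2.53 to 998 for 8 oocyte markers. The 18S ribosomal RNA gene took 24.5% of counts in CT ob library 68, 12.8% in db/db library 24 and 1.10% to 9.12% in the others. In such pooled cells, fewer cells of a type and less RNA per cell cannot be told apart.

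No member was called in either comparison of mutants with their own controls. Between the controls 1 member, Ide, was called, beside 6.63% of all genes tested. Calling required a p of at most 0.05 after Benjamini-Hochberg adjustment over all genes tested in edgeR's quasi-likelihood test, and 9 of the 10 members passed the filter on low counts in each fit, Pappa being the exception. For db/db against CT db, 0 of 9 members and 0.00884% of all genes tested were called, and DESeq2 on the same genes called 44 genes and 0 members. An unadjusted p under 0.05 was seen for 2 members, Igf1r and Igf2r, and for 859 of all 11317 genes. For ob/ob against CT ob, 0 of 9 members and 0% of all genes were called, 0 members and 1014 genes of 12425 had an unadjusted p under 0.05, and DESeq2 called 86 genes but 0 members. The libraries of mutants and controls overlapped for every member in both models, against a share without overlap, over all genes, of 4.13% for db/db against CT db and 15.7% for ob/ob against CT ob. The exact two-sided permutation test on mean CPM over the 10 members gave its smallest p for Igf2r in the db model (p = 0.0857, unadjusted, smallest possible 0.0286) and for Irs2 and Igfbp5 in the ob model (p = 0.3, unadjusted, smallest possible 0.1).

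**Figure D1:**
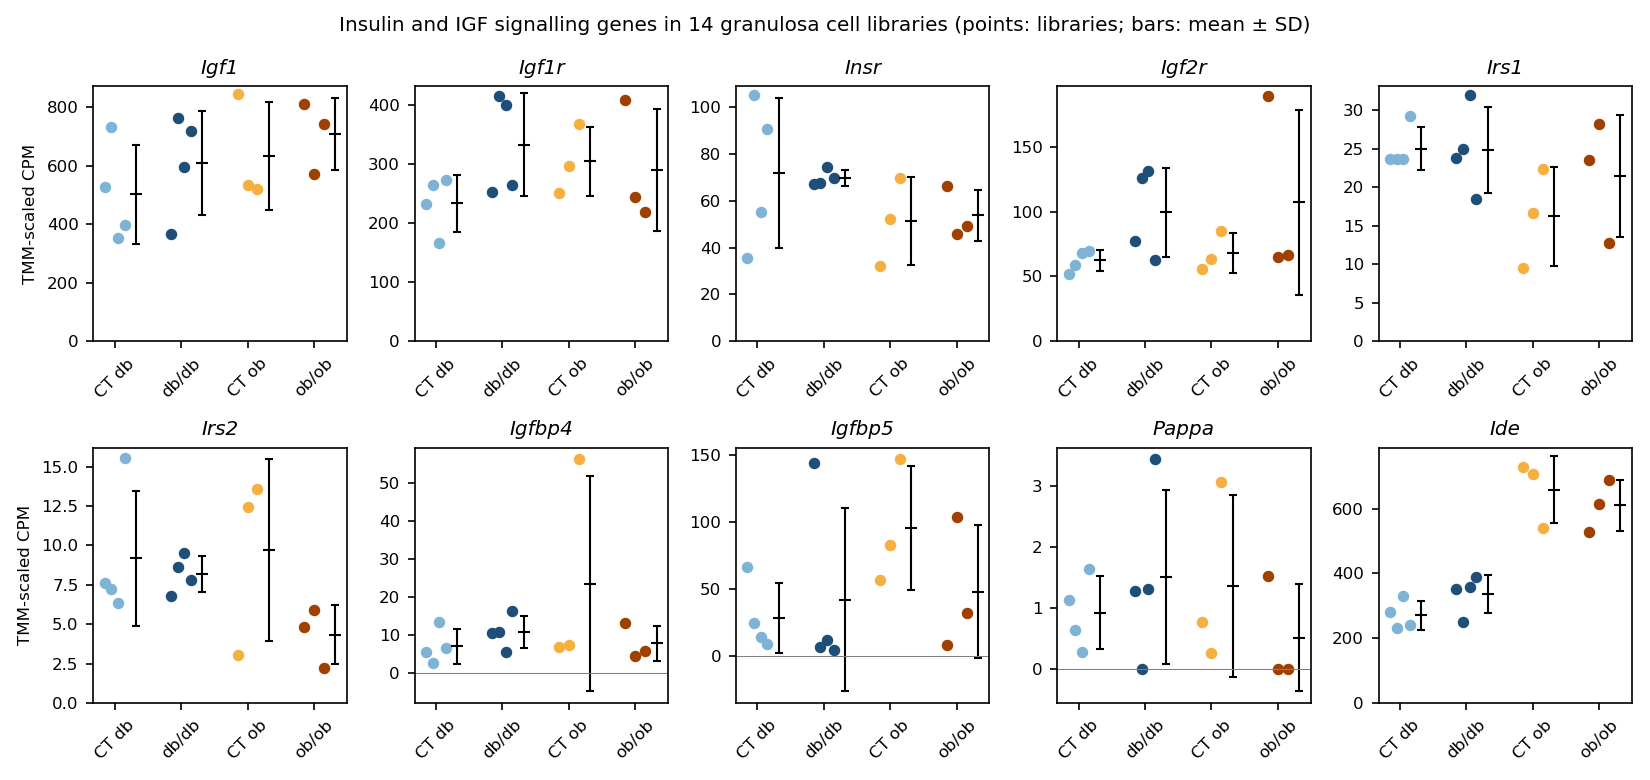
TMM-scaled CPM (y axis, linear) of the 10 members in each library (points) of CT db, db/db, CT ob and ob/ob, with the mean ± SD beside each group (n = 4, 4, 3 and 3). Ide sits at 230.0 to 389 CPM in the 8 libraries of the db model and at 529 to 730.3 CPM in the 6 libraries of the ob model, and within each model mutants and controls overlap for every member.

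Per length, Igf1 and Ide were the most abundant members and Pappa the least. Levels between genes are given as CPM per kb of the union of exons. Igf1 was at 49.1 ± 16.5 CPM per kb in CT db (SD, n = 4), 59.6 ± 17.4 in db/db, 61.9 ± 18 in CT ob (n = 3) and 69.1 ± 12.1 in ob/ob. Ide followed with 24.4 ± 4.09 and 30.3 ± 5.39 CPM per kb in the db model, where its libraries lay below those of Igf1, and with 59.4 ± 9.28 and 55.0 ± 7.13 in the ob model, where the ranges of both genes overlapped and their order turned when the longest transcript was taken as the length. Igf1r came next in CT db, db/db and ob/ob, at 11.8 ± 2.46, 16.9 ± 4.37 and 14.7 ± 5.2 CPM per kb, and was behind Igfbp5 in CT ob. In CT db, Igf2r lay below Igf1r without overlap, while Igf2r, Insr and Igfbp5, at the places that followed, overlapped with their neighbours below. The places of Igfbp4, Igfbp5 and Insr changed between groups. Irs1, Igfbp4 and Irs2 were at 0.589 to 5.34 CPM per kb on average, and Pappa at 0.0460 to 0.136.

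Igf1 (ENSMUSG00000020053, chr10:87693642-87772904, plus strand of GRCm39) codes for the ligand that GCs themselves produce. It was at 527, 730.4, 353 and 398 CPM in the CT db libraries 37, 51, 69 and 75 and at 365, 761, 594 and 719 CPM in the db/db libraries 24, 53, 68 and 81. It was at 846, 533 and 521 CPM in the CT ob libraries 60, 65 and 68 and at 811, 570.1 and 742 CPM in the ob/ob libraries 41, 50 and 106. The groups overlapped in both models, and library 24 was the lowest of db/db. The log2 fold change was 0.27 (95% confidence interval -0.30 to 0.85, adjusted p = 0.825) for db/db against CT db and 0.16 (95% confidence interval -0.43 to 0.74, adjusted p = 0.884) for ob/ob against CT ob. The other ligands of these receptors, Ins1, Ins2 and Igf2, had 0 counts in all 14 libraries, and a count of 0 allows up to 1.30 CPM in the shallowest library.

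Of the receptors, Igf1r and Igf2r had the members' lowest unadjusted p-values in the db model, and neither passed the adjustment. Igf1r (ENSMUSG00000005533, chr7:67601518-67883416, plus strand), the receptor for IGF1, was at 232, 265, 166 and 272 CPM in CT db and at 253, 415, 401 and 265 CPM in db/db, in the same library order. The db/db libraries 53 and 68 lay above every CT db library, and the db/db libraries 24 and 81 within their range. The log2 fold change was 0.50 (SE 0.21, adjusted p = 0.621), with an unadjusted p of 0.0328. For the ob model, Igf1r was at 251, 296 and 367 CPM in CT ob and 408, 244 and 218 CPM in ob/ob, where library 41 was the highest. The groups overlapped, with a log2 fold change of -0.0791 (SE 0.28, adjusted p = 0.953). Of the longest Igf1r transcript, 1247 bases or 9.93% are identical, in runs of at least 75 bases, to the antisense strand of Pgpep1l, and reads from that stretch cannot be told apart.

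Igf2r (ENSMUSG00000023830, chr17:12901293-12988614, minus strand) codes for the clearance receptor of IGF2, which also carries lysosomal enzymes as the mannose 6-phosphate receptor. It was at 51.8, 59.2, 68.4 and 69.9 CPM in CT db and 77.6, 126, 132 and 62.8 CPM in db/db. As for Igf1r, libraries 53 and 68 were the highest of db/db. Library 24 also lay above all CT db libraries, while library 81 lay within their range. The log2 fold change was 0.66 (SE 0.23, adjusted p = 0.558), with an unadjusted p of 0.0132. It became a call (adjusted p = 0.0448) when no filter on low counts was applied, in a fit that called 270 of 28505 genes. In the ob model it was at 55.6, 63.8 and 85.3 CPM in CT ob and 189, 65.3 and 66.8 CPM in ob/ob. Library 41 alone stood above the controls, and the log2 fold change of 0.65 (SE 0.42, adjusted p = 0.709) was -0.0477 without that library.

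Insr (ENSMUSG00000005534, chr8:3172061-3329647, minus strand), the insulin receptor, was at 35.5, 105, 55.2 and 90.6 CPM in CT db and 66.9, 67.5, 74.5 and 69.7 CPM in db/db. The db/db libraries were close together within the wide range of CT db, and the log2 fold change was -0.0497 (95% confidence interval -0.65 to 0.55, adjusted p = 0.974). For the ob model, Insr was at 32.2, 52.1 and 69.7 CPM in CT ob and 66.0, 45.7 and 49.4 CPM in ob/ob, with a log2 fold change of 0.0637 (95% confidence interval -0.62 to 0.75, adjusted p = 0.966). Per kb, Igf1r exceeded Insr in all 14 libraries, by a mean ratio of 2.63 in CT db, 3.33 in db/db, 4.36 in CT ob and 3.70 in ob/ob, with single libraries from 1.75 to 5.43.

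**Figure D2:**
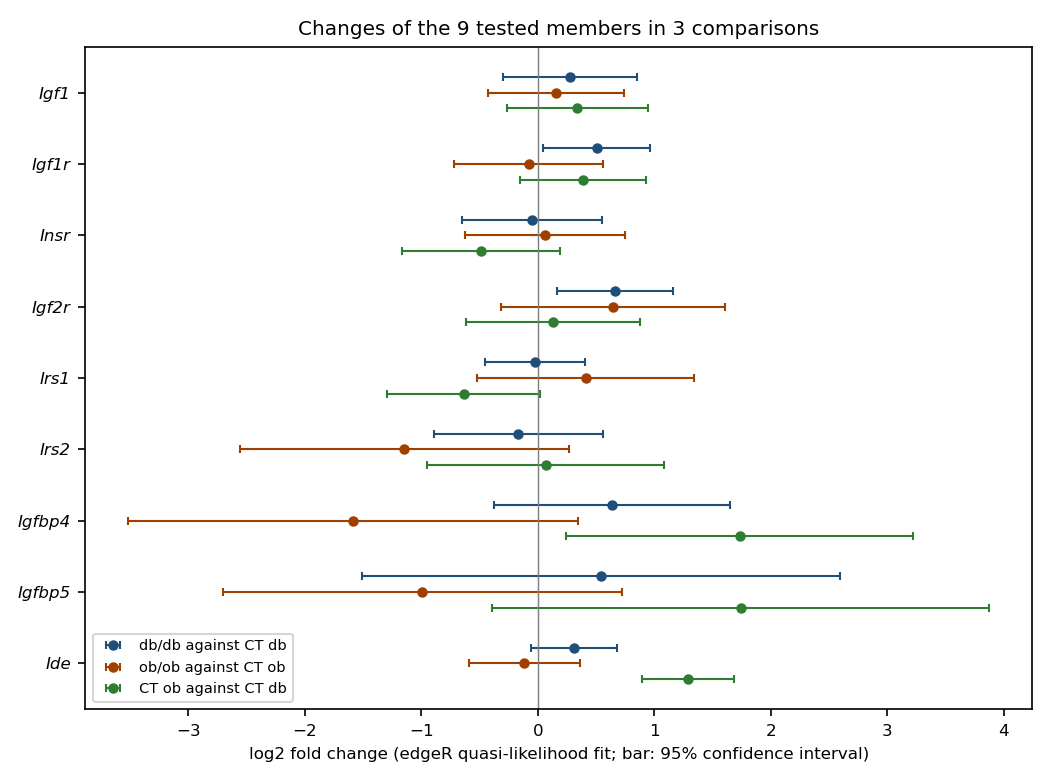
Log2 fold change (x axis) with its 95% confidence interval for the 9 tested members in db/db against CT db, ob/ob against CT ob and CT ob against CT db (edgeR quasi-likelihood fits). The interval of Ide between the controls, 0.90 to 1.68, is the one behind the single call, and the widest intervals belong to Igfbp4 and Igfbp5.

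The adaptors link both receptors to PI3K. Irs1 (ENSMUSG00000055980, chr1:82210822-82269338, minus strand) was at 23.6, 23.6, 23.6 and 29.2 CPM in CT db and 23.9, 24.9, 32 and 18.4 CPM in db/db. CT db library 75 stood above the other 3 CT db libraries, which differed by less than 0.1 CPM, and the groups overlapped with a log2 fold change of -0.0218 (95% confidence interval -0.45 to 0.41, adjusted p = 0.986). Irs1 in the ob model was at 9.58, 16.7 and 22.4 CPM in CT ob and 23.5, 28.2 and 12.8 CPM in ob/ob, with a log2 fold change of 0.41 (SE 0.41, adjusted p = 0.803). Irs2 (ENSMUSG00000038894, chr8:11034681-11059499, minus strand) was the lower of the pair per kb in every library.

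Irs2 was at 7.60, 7.24, 6.32 and 15.6 CPM in CT db and 6.82, 8.60, 9.53 and 7.81 CPM in db/db, from 16 to 57 counts per library, and library 75 was again the highest of CT db. The log2 fold change was -0.17 (95% confidence interval -0.89 to 0.56, adjusted p = 0.932). In the ob model Irs2 was at 3.07, 12.5 and 13.6 CPM in CT ob and 4.85, 5.91 and 2.24 CPM in ob/ob. CT ob libraries 65 and 68 lay above all ob/ob libraries and library 60 within their range, and the log2 fold change was -1.15 (SE 0.62, adjusted p = 0.669). The per kb ratio of Irs1 to Irs2 was 4.02 in ob/ob (3.76 to 4.49) and 1.61 in CT ob (1.06 to 2.46), beside 2.39 in db/db and 2.36 in CT db. The ratios of ob/ob and CT ob did not overlap. The CPM of single genes, which is a different measure, did not overlap between these groups for 15.7% of all genes. The share among ratios of genes was not worked out. Other ratios of members were worked out too, and no test was run on any of them. Reads in 8.0% of the longest Irs2 transcript, and in 3.35% of that of Irs1, could also come from genes on the antisense strand.

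The values of Irs1 and Irs2, and those of Igf1r and Igf2r, varied together between libraries, and the promoters of these 4 genes are therefore shown. Across the 14 libraries, the log2 CPM of Igf1r and Igf2r correlated with r = 0.770 (0.796 after taking out group means), and that of Irs1 and Irs2 with r = 0.621 (0.861). These are the highest of the 36 pairs of tested members, the points share library depth and composition, and Irs2 rests on 13 to 57 counts. The sequences are the 250 bases before the RefSeq start site, on the strand of the gene, in GRCm38.p6, a build older than that of the gene positions above, and 8 of the 10 members had an entry. Capitals mark TGTTTT or its complement AAAACA, the core of the insulin response element bound by FOXO factors, and GGGCGG or its complement CCGCCC, the GC box bound by SP1.
Irs1 (chr1:82291440-82291689, minus strand): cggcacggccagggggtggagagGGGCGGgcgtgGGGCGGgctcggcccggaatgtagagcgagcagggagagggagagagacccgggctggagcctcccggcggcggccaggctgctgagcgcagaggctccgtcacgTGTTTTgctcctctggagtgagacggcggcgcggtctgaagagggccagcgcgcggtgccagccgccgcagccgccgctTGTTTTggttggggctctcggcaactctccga
Irs2 (chr8:11008930-11009179, minus strand): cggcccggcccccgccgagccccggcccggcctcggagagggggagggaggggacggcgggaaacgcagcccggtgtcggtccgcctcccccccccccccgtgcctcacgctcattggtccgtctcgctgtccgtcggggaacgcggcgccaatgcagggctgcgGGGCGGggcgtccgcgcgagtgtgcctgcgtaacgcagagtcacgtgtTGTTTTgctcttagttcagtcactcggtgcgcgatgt
Igf1r (chr7:67952007-67952256, plus strand): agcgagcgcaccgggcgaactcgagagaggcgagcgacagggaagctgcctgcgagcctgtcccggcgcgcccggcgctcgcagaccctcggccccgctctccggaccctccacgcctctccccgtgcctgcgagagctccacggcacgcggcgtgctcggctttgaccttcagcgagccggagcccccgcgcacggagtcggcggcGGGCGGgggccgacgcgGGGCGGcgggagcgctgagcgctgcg
Igf2r (chr17:12769707-12769956, minus strand): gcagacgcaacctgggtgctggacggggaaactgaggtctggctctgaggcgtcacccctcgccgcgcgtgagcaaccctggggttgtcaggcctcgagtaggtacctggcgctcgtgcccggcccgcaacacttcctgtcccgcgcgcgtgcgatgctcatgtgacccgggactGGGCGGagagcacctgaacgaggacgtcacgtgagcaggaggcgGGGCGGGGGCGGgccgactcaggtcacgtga
All 4 are rich in G and C (69.2% to 77.6%). The GC box was found in these 4 of the 8 members searched, and in 32.7% of 32851 promoters of the same length. The TGTTTT core was found in 3 of the 8, Irs1 (2 matches), Irs2 (1 match) and Ide, and in 19.8% of all promoters. For Ide, the RefSeq start used matched no transcript start of the GENCODE annotation, and its sequence is therefore not shown. The longer FOXO consensus TGTTTAC, present in 3.17% of all promoters, was in none of the 8 members, and the cAMP response sequence TGACGT, present in 6.47%, was in Igf2r. The longest identical stretches of the Irs1 and Irs2 promoters have 10 bases, and there are 2 of them, GTCACGTGTT and TGTTTTGCTC, the latter with the whole core. The longest one of the Igf1r and Igf2r promoters also has 10 bases, GGGCGGGGGC, and holds a GC box. How often other promoters share as much was not tested. A match describes letters only.

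Igfbp4 and Igfbp5 had the largest standard errors of the tested members in both models, and neither was called. Igfbp4 (ENSMUSG00000017493, chr11:98932064-98945218, plus strand), an inhibitor of IGF action, was at 5.63, 2.56, 13.5 and 6.55 CPM in CT db and 10.7, 10.8, 5.63 and 16.3 CPM in db/db, with a log2 fold change of 0.64 (SE 0.46, adjusted p = 0.763). It was at 6.90, 7.47 and 56.4 CPM in CT ob and 13.2, 4.56 and 5.69 CPM in ob/ob, with a log2 fold change of -1.58 (SE 0.84, adjusted p = 0.663). The ob value rests on CT ob library 68, the one with 24.5% of counts on 18S ribosomal RNA: without it, the log2 fold change was 0.12, so its sign turned. Without a filter on low counts the full set of libraries gave a call (adjusted p = 0.0284), in a fit that called 359 of 32006 genes. The part of that library's composition in the value was not tested. In Igfbp4, 4.48% of the longest transcript is shared with other genes.

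Igfbp5 (ENSMUSG00000026185, chr1:72897091-72914043, minus strand), a binding protein that also attaches to the extracellular matrix, was at 66.4, 24.5, 14.3 and 9.01 CPM in CT db and 144, 6.88, 12.1 and 4.38 CPM in db/db. Library 24 was far above the remaining 3 of its group, which lay below every CT db library except library 75. The log2 fold change of 0.54 (SE 0.94, adjusted p = 0.915) was -1.90 (adjusted p = 0.313) without library 24. The theca and stroma markers of that library summed to 317 CPM against 15.2 to 62.5 CPM in the other db/db libraries. Of the 317 CPM, 256 CPM came from Cyp17a1 alone. The part of these markers in the result was not tested. In the ob model Igfbp5 was at 56.3, 83.0 and 147 CPM in CT ob and 8.45, 103 and 32.3 CPM in ob/ob. Those groups overlapped, and the log2 fold change was -0.99 (SE 0.75, adjusted p = 0.739), with -2.24 without ob/ob library 50 and -0.48 without ob/ob library 41.

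Pappa (ENSMUSG00000028370, chr4:65042411-65275746, plus strand), the metalloproteinase that cuts Igfbp4 and Igfbp5, was near or below the limit of detection. It had 0 to 11 counts per library, with 0 counts in db/db library 53 and in ob/ob libraries 50 and 106. Its means were 0.919 ± 0.592 CPM in CT db, 1.5 ± 1.43 in db/db, 1.36 ± 1.5 in CT ob and 0.508 ± 0.879 in ob/ob (SD, n = 4, 4, 3 and 3). Pappa was not tested in the main fits.

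Ide (ENSMUSG00000056999, chr19:37245688-37340729, minus strand) codes for a zinc metalloprotease that degrades insulin and other small peptides inside and outside cells. It was at 281, 230.0, 331 and 242 CPM in CT db and 350.4, 250.3, 357 and 389 CPM in db/db. It was at 730.3, 707 and 541 CPM in CT ob and 529, 615 and 687 CPM in ob/ob. Mutants and controls overlapped within each model, while every ob model library lay above every db model library, in controls and mutants alike. Over all genes tested, the share without overlap was 21.2% between the controls and 9.91% between the mutants. The log2 fold change was 0.31 (95% confidence interval -0.0618 to 0.68, adjusted p = 0.704) for db/db against CT db and -0.12 (95% confidence interval -0.59 to 0.36, adjusted p = 0.895) for ob/ob against CT ob.

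Between the controls, Ide was higher in CT ob, with means of 659 ± 103 CPM (SD, n = 3) and 271 ± 45.4 CPM (n = 4), a log2 fold change of 1.29 (SE 0.18, 95% confidence interval 0.90 to 1.68) and an adjusted p of 0.00489. It was 1 of 9 members called in this comparison, in which 6.63% of all genes tested were called (282 with a positive and 552 with a negative log2 fold change). That count of 834 genes was 112 without CT ob library 68, 138, 482 and 201 without CT db libraries 51, 69 and 75, 376 without CT ob library 60, and 3 in the fit of the control libraries alone. Leaving out each library in turn gave log2 fold changes of 1.21 to 1.40, with adjusted p-values of 0.0043 to 0.0238. In the fit of the 7 control libraries alone, the log2 fold change was 1.27 and the adjusted p 0.0524. Between the mutants, the log2 fold change was 0.86 (SE 0.18, adjusted p = 0.322), with Ide at place 7 of 12586 genes by p and called by DESeq2 (adjusted p = 0.00915). There 0.0159% of all genes and 0 of 9 members were called by edgeR. Colony, strain and any difference in handling of the models cannot be told apart here.

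Markers of other cells are given beside this result. Oocyte markers summed to 54.7 to 998 CPM in CT ob, 109 to 639 in ob/ob, 2.53 to 220.0 in CT db and 5.12 to 56.3 in db/db, with 0 to 4 of 8 markers at 0 in each library. In the library order used above, the oocyte sums were 998, 257 and 54.7 CPM in CT ob and 180.4, 109 and 639 CPM in ob/ob, where the library with the highest sum also had the highest Ide of its group. They were 2.53, 220.0, 121 and 13.4 CPM in CT db, where the highest sum went with the lowest Ide, and 5.12, 37.4, 56.3 and 5.31 CPM in db/db. Without CT db library 51 and CT ob library 60, the highest of their groups in oocyte markers, the log2 fold change of Ide was 1.13 and its adjusted p 0.0698. Endothelial markers summed to 23.5 to 40.4 CPM in CT ob and 4.78 to 11.8 CPM in CT db, and the part of either marker list in the Ide result was not tested.

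Ide and its neighbours on chromosome 19 were set side by side, a choice made after the values of Ide were seen. The neighbours are the 7 other protein-coding genes tested that lie at least in part within 500000 bases of Ide. Between the controls, edgeR called Ide and none of these neighbours, beside 6.63% of all genes tested. Between the mutants it called neither Ide nor any neighbour, beside 0.0159%. Fgfbp3, a carrier of fibroblast growth factors, had log2 fold changes of 1.15 (SE 0.38, adjusted p = 0.0783) between the controls and 1.17 (SE 0.38, adjusted p = 0.382) between the mutants. It was at 29.2 to 118.5 CPM in the db model libraries and at 119.9 to 157 CPM in the ob model libraries. These ranges did not overlap but nearly touched. The share of all genes that separate the models in this way was not worked out. Cpeb3 (group means of 1.99 to 4.75 CPM) had log2 fold changes of 1.02 and 1.09 and Btaf1 of 0.47 and 0.57, in the same order. The genes next to Ide on either side had -0.51 and -0.00189 (Marchf5) and -0.29 and 0.0877 (Kif11). As background, a segment with Ide and Fgfbp3 is known to vary in copy number among C57BL/6J mice. Copy number was not measured here.

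**Figure D3:**
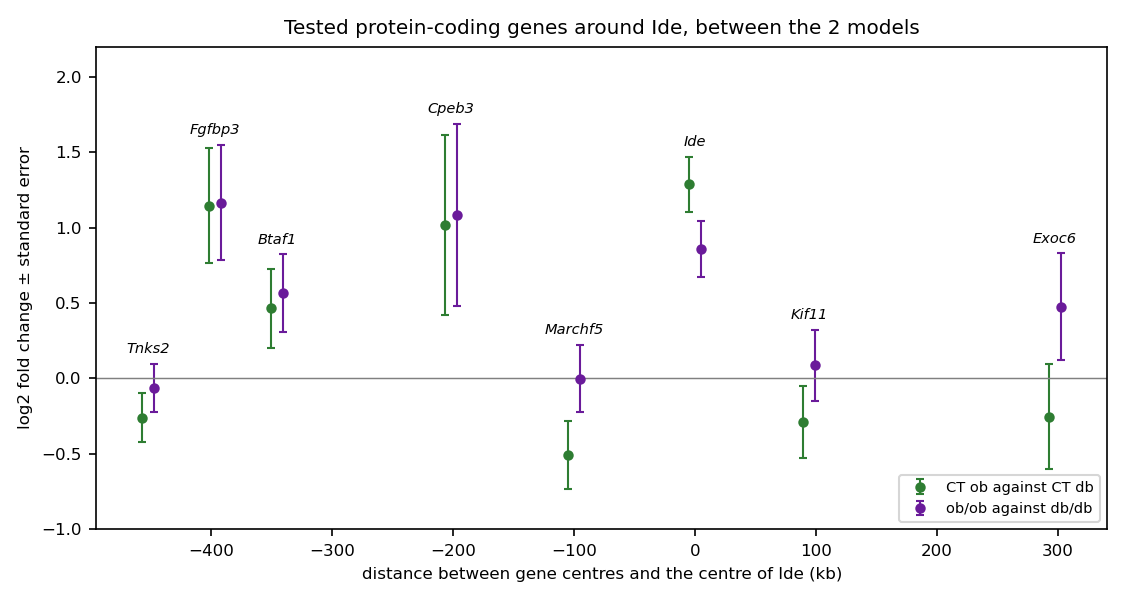
Log2 fold change ± standard error (y axis) of Ide and the 7 other tested protein-coding genes around it, against the distance of gene centres from the centre of Ide in kb (x axis), for CT ob against CT db and ob/ob against db/db (offset slightly). Ide, Fgfbp3 and Cpeb3 are at 0.86 or above in both comparisons. Btaf1 is at 0.47 and 0.57 and Exoc6 at -0.25 and 0.48. Tnks2, Marchf5 and Kif11 lie between -0.51 and 0.09.

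No other member was called between the models. For CT ob against CT db, the log2 fold change was -0.64 (SE 0.31, adjusted p = 0.197) for Irs1, 1.73 (SE 0.70, adjusted p = 0.131) for Igfbp4, 1.74 (SE 1.0, adjusted p = 0.272) for Igfbp5 and -0.49 (SE 0.32, adjusted p = 0.331) for Insr. The control libraries did not overlap for 2 members, Irs1 (lower in CT ob) and Ide, beside 21.2% of all genes. Without a filter on low counts, Igfbp4 and Igfbp5 were called too (adjusted p = 0.000719 and 1.65e-10), in a fit that called 1727 of 34753 genes. With the filter, the log2 fold change of Igfbp4 was 0.0286 without CT ob library 68. The edgeR adjusted p of Igfbp5 was 0.138 to 0.549 in the filtered fits with each library left out. For ob/ob against db/db, the libraries did not overlap for 3 members, Insr and Irs2 (lower in ob/ob) and Ide, beside 9.91% of all genes. The log2 fold changes there were -0.37 (SE 0.31, adjusted p = 0.877) for Insr and -0.90 (SE 0.49, adjusted p = 0.721) for Irs2, neither of them called.

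The difference of the mutant effects between the models was tested directly. Of 9 members 0 were called, beside 0% of all genes, with 1021 of 12586 genes at an unadjusted p under 0.05 and 72 called by DESeq2, none of them a member. Igfbp4 had the largest difference, -2.21 (SE 1.0, adjusted p = 0.595) on the log2 scale for the effect in ob/ob minus that in db/db, with an unadjusted p of 0.0428, and it was -0.50 without CT ob library 68. For Igf1r the difference was -0.58 (SE 0.36, adjusted p = 0.678), for Igf2r -0.0190 (SE 0.49, adjusted p = 0.995), for Irs2 -0.97 (SE 0.68, adjusted p = 0.706) and for Ide -0.43 (SE 0.26, adjusted p = 0.675). A member's effect was not shown to differ between the models, and for Igfbp4 and Igfbp5 the intervals were wide.

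As a group, 6 of the 9 tested members had positive log2 fold changes in db/db against CT db, with a median of 0.31. Over all genes tested, 51.6% were positive and the median was 0.0101. In ob/ob against CT ob, 4 of 9 were positive, with a median of -0.0791, beside 46.0% and -0.0360 over all genes. The medians rest on few genes with correlated values.

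A further 61 genes of the pathway were listed by role, from ligands to glucose transporters, and 55 of them had over 3 counts in at least 1 library. Of the 45 tested in the db model, 0 were called, 27 had positive and 18 negative log2 fold changes, and the median was 0.0562. Igfbp2, another IGF binding protein, had the smallest p, with a log2 fold change of 0.80 (SE 0.21, adjusted p = 0.398), from 16.9, 17.7, 15.4 and 22.9 CPM in CT db to 31.1, 41.7, 24.7 and 30.3 CPM in db/db without overlap. Over all genes tested, the share without overlap between these groups was 4.13%. Igfbp2 was followed by Rheb, the GTPase that activates mTOR, at 0.35 (SE 0.13, adjusted p = 0.567), and Gsk3b, a kinase switched off by AKT, at 0.44 (SE 0.18, adjusted p = 0.621). Among the FOXO and GSK3 genes, 4 of 5 were positive, with a median of 0.37, the highest of the roles. In the mTOR group 7 of 9 were positive, in the PI3K and AKT group 6 of 10 and among the adaptors 1 of 4. Over all genes tested, 51.6% were positive.

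In the ob model, 0 of the 47 pathway genes tested were called, with 17 positive and 30 negative and a median of -0.12. Over all genes, 46.0% were positive. Htra1, a secreted serine protease that can cut IGF binding proteins, had a log2 fold change of -0.73 (SE 0.24, adjusted p = 0.561), and Pik3r3, a regulatory subunit of PI3K, one of -1.16 (SE 0.43, adjusted p = 0.581).

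Between the controls, 2 of 48 pathway genes were called by edgeR, both higher in CT ob, beside 6.63% of all genes. DESeq2 called 5 of the 48, beside 1563 of all 12586 genes. Igfbp2 was at 42.2, 27.2 and 64.6 CPM in the 3 CT ob libraries, above the 4 CT db values given, with a log2 fold change of 1.29 (SE 0.27, adjusted p = 0.0181). Htra1 was at 2679, 1818 and 2937 CPM in CT ob and 1521, 1029, 1295 and 1025 CPM in CT db, with a log2 fold change of 1.03 (SE 0.19, adjusted p = 0.0121). Over all genes tested, the share without overlap between the controls was 21.2%. Both calls come from the fit of all 14 libraries, in which 834 genes were called, against 3 in the fit of the control libraries alone. In the roles of these genes, DESeq2 called 1 of the 3 binding proteins and 1 of the 2 binding protein proteases and inhibitors tested. Whether either call holds in settings other than DESeq2 was not tested. The ob/ob libraries had Htra1 at 1607, 1534 and 1359 CPM, below all 3 CT ob libraries, beside 15.7% of all genes without overlap between these groups. In ob/ob against db/db and in the difference of the mutant effects, 0 of 48 were called.

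**Figure D4:**
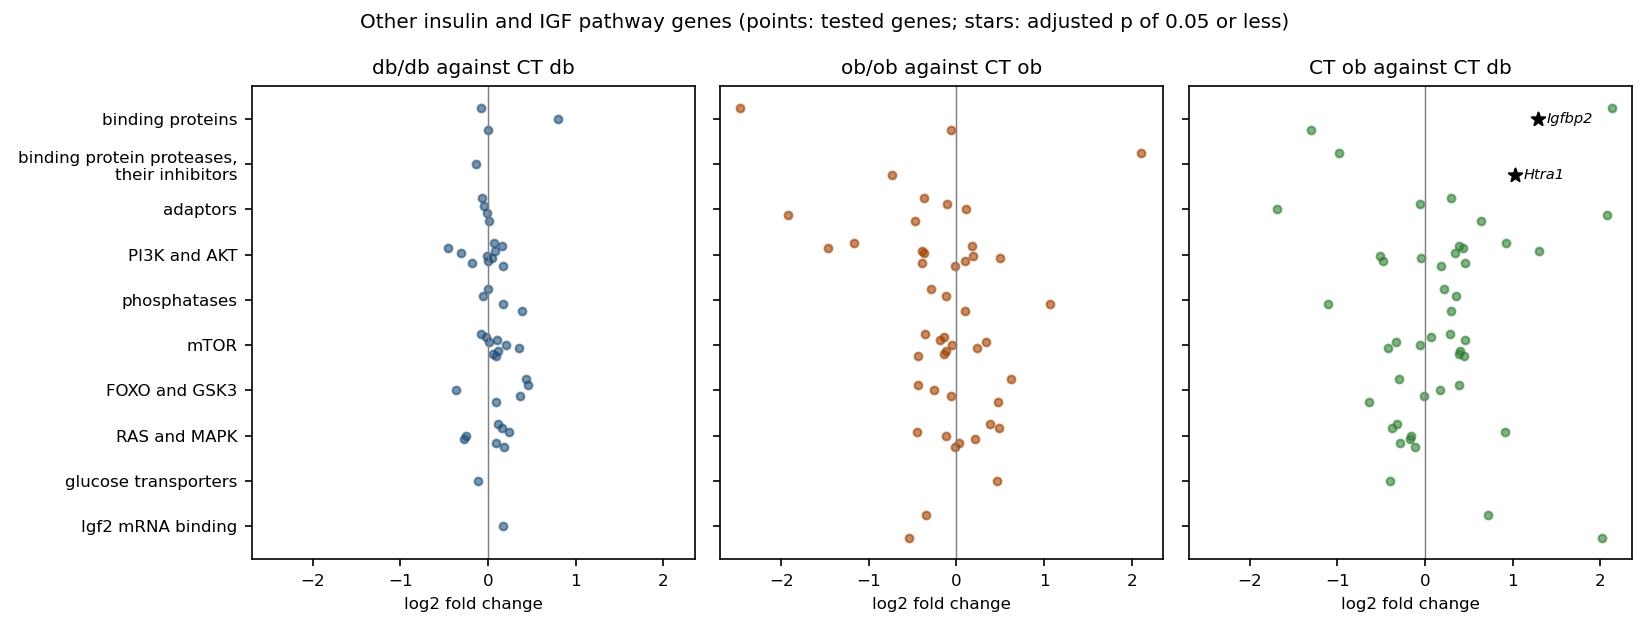
Log2 fold change (x axis) of the tested pathway genes other than the members, by role (rows), in db/db against CT db (45 genes), ob/ob against CT ob (47) and CT ob against CT db (48); each point is a gene and stars are genes with an adjusted p of 0.05 or less. Igfbp2 and Htra1 in CT ob against CT db, from the fit of all 14 libraries, are the 2 starred genes.

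The genes most like each member in log2 CPM over the 14 libraries were read out from 12585 tested genes as a description. Insr was most like Foxp1 (r = 0.901), Foxp2 (r = 0.859) and mt-Nd2 (r = 0.859), and Igf1r most like Tnrc6b (r = 0.925), Fbxl14 (r = 0.919) and Ubr2 (r = 0.899). Igf2r was most like Lmln (r = 0.928), Igf1 most like Dicer1 (r = 0.877), Irs1 most like Scgb3a1 (r = 0.884) and Irs2 most like C230035I16Rik (r = 0.896). Igfbp4 was most like 2310022B05Rik (r = 0.933) and Igfbp5 most like Crip3 (r = 0.922). Ide was most like Cdc20 (r = 0.902), a cell cycle gene, Necap2 (r = 0.891) and Kif22 (r = 0.887). Such values come from the highest of many correlations over few libraries, and the points share depth, composition and group. Ide and Igf1r ran opposite to each other after taking out group means (r = -0.813), with r = -0.029 over all libraries.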

How the data were processed

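RNA-seq was measured in 14 libraries of pooled GCs. The deposited values are whole-number counts per gene, which the authors left without normalization. The study's methods name cutadapt, STAR, GRCm39 and featureCounts, while the submitters' processing notes name FastQC, Trim Galore 0.6.2, HISAT2 2.1.0 and GRCm38, so the counting build is unsettled. Strand setting and multi-mapping reads are not given in the sources used here; without molecular identifiers on the 75-base reads, detection limits reflect counting error alone. All columns were used and assigned to groups by name. Symbols came from a GRCm39 annotation (GENCODE M39; 54749 of 55414 identifiers), promoters from RefSeq.

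edgeR 4.0.16 in R 4.3.3 gave TMM factors and quasi-likelihood tests on genes kept by filterByExpr (minimum count 10, minimum total 15), with Benjamini-Hochberg adjustment at 0.05. Each model was fitted on its own, and 1 fit of all 14 libraries served the other 3 comparisons. log2 CPM used a prior count of 2. DESeq2 1.42.0 was an alternative. Tests were checked on simulated counts. Shared stretches of transcripts were found with BLAST 2.17.0. Members, lists and the rule for named genes (every member; pathway genes called or among the 3 smallest p per mutant comparison; the 3 genes most like each member) were chosen with earlier results of these data known. Neighbours of Ide were chosen after its values were seen. A further result is left out of the text.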

Additional observations from a re-analysis of the deposited data

Results flagged for a closer look

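In groups of 4 libraries, a library was flagged where its gap to the nearest of the others exceeded Dixon's 95% critical value as a share of the group's range. Of 20 sets tested, the 10 members in CT db and in db/db, 3 were flagged, and chance flags about 1 in 20. Irs1 in CT db library 75 was at 29.2 CPM, above the other 3 CT db libraries at 23.6 CPM. Irs2 in the same library was at 15.6 CPM, with the others at 6.32 to 7.60 CPM. Igfbp5 in db/db library 24 was at 144 CPM, with the others at 4.38 to 12.1 CPM. No explanation of these values was tested.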

How the results depend on the processing

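Over the settings that left no single library out, 353 of the members' log2 fold changes kept their sign and their side of the threshold, 15 changed sign, 8 became calls and 2 lost one. Both lost calls are Ide in CT ob against CT db, at 1.27 (adjusted p = 0.0524) in the fit of the 7 control libraries and at 1.13 (adjusted p = 0.0698) without CT db library 51 and CT ob library 60, where 0 members were called. The 8 new calls came with DESeq2 (Ide between the mutants, 1 member) or without a filter on low counts. In that unfiltered fit 1 member was called in db/db against CT db, 1 in ob/ob against CT ob, 1 in ob/ob against db/db, 3 in CT ob against CT db and 2 in the difference of the mutant effects. The same fit called 270, 359, 535, 1727 and 329 genes in those 5 comparisons. The causes were not tested.

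Over all genes, library totals without TMM gave 2 calls in db/db against CT db and 261 in CT ob against CT db, and DESeq2 gave 44, 86, 72, 1563 and 72 in the 5 comparisons in the order above. A minimum of 10 counts in every library gave 0 for db/db against CT db and 1 for ob/ob against db/db, and the fit of 14 libraries gave 0 for db/db against CT db and 1 for ob/ob against CT ob. Fits of only the 7 libraries compared gave 4 for the mutants and 3 for the controls. Without CT db library 51 and CT ob library 60, 9 genes were called between the controls, and without db/db library 24 and CT ob library 68 (both sets chosen after seeing the data) 92, and 1 in the difference. Leaving out each library in turn gave 1 to 4 calls in db/db against CT db (4 without db/db library 68), 0 to 1 in the difference (1 without db/db library 24) and 112 to 1196 in CT ob against CT db. The last count was 138 without CT db library 51, 482 without 69 and 201 without 75, and 376 without CT ob library 60 and 112 without 68.

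Signs turned as follows, none of the values being a call. With library totals only, the log2 fold change was 0.0226 for Insr and 0.0453 for Irs1 in db/db against CT db, 0.0316 for Igf1r in ob/ob against CT ob and 0.0247 for Igf2r in the difference. That scaling moved the median over all genes by at most 0.0773. Without a filter, it was 0.00527 for Igf1r in ob/ob against CT ob and 0.0788 for Igf2r in the difference. Without CT db library 51 and CT ob library 60, Insr was at 0.00747 between the controls and -0.38 in the difference. Without db/db library 24 and CT ob library 68, Igfbp5 was at -1.90 in db/db against CT db and 1.39 in the difference, Igf1r at 0.0847 and Igfbp4 at 0.12 in ob/ob against CT ob, Igf2r at -0.0746 and Irs2 at -0.27 between the controls, and Igf2r at 0.0943 in the difference. With each library left out, the ranges that crossed 0 were -0.27 to 0.20 (Insr), -0.17 to 0.10 (Irs1), -0.32 to 0.21 (Irs2) and -1.90 to 1.36 (Igfbp5) in db/db against CT db. In ob/ob against CT ob they were -0.19 to 0.35 (Insr), -0.40 to 0.0910 (Igf1r), -0.0477 to 0.91 (Igf2r) and -2.18 to 0.12 (Igfbp4). In ob/ob against db/db they were -0.59 to 0.37 (Igf2r), -0.45 to 0.0653 (Irs1) and -1.04 to 2.66 (Igfbp5), and between the controls -0.0751 to 0.26 (Igf2r) and -0.27 to 0.51 (Irs2). In the difference they were -0.13 to 0.42 (Insr), -0.72 to 0.24 (Igf2r), -0.36 to 0.15 (Igf1) and -2.78 to 0.92 (Igfbp5).

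No paired analysis was possible because the columns carry no replicate number of the labels. Taking the median of libraries or unscaled CPM moved none of 80 group levels beyond their spread, and the longest transcript as length moved 12 of 40 places in the order. Pappa, at 0 to 11 counts per library, was removed by filterByExpr and so had no test in the main fits. Any part of depth in its low counts was not tested.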
